A study of Homo sapiens with 9 samples.

Results

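Actin genes and cytoskeletal genes controlled by serum response factor (SRF) were followed across HEK293T cells carrying either of 2 CIC fusions or an empty vector. The set held 10 of the 62700 genes in the deposited count table, chosen by symbol: ACTG1, ACTB, ACTA2, ACTG2, ACTC1, TAGLN, MYL9, CNN1, VCL and SRF. ACTG1 was chosen because its measured level lay on opposite sides of the control with the 2 fusions, so its values are given as a description with no test. The other 9 genes were chosen by name as further actins and SRF targets.

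Actin exists as a few nearly identical proteins encoded by separate genes. ACTB and ACTG1 encode the cytoplasmic actins found in almost every cell, whereas ACTA2, ACTG2 and ACTC1 encode muscle forms. SRF binds a DNA element called the CArG box in the promoters of many cytoskeletal genes. Its partners MRTFA and MRTFB are held in the cytoplasm by free actin monomers, so that the pathway reads the state of actin itself, and a separate family of partners, the ternary complex factors, links SRF to growth factor signalling.

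HEK293T is a line grown from transformed human embryonic kidney cells and easy to transfect. Each of the 3 groups held 3 libraries of polyA-selected RNA. All cells were reverse transfected, 300000 per condition, with the reagent Fugene 6, and RNA was taken about 48 hours later, per the labels' protocols. The empty vector group, here the controls, received the plasmid with no insert, the CIC::DUX4 group HA-CIC::DUX4, and the CIC::NUTM1 group HA-CIC(ex20)::NUTM1(ex6). CIC is a DNA-binding repressor, and DUX4 and NUTM1 are the proteins it is fused to in some sarcomas. The fusions were expressed transiently from plasmids in 1 cell line, the labels do not give the share of cells that took up a plasmid, and the fusion transcripts were not analysed here. In bulk RNA, fewer cells expressing a gene and less RNA per cell cannot be told apart. Replicates were transfected on separate days, so the tests below measure the spread between transfections of 1 line.

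Library totals ran from 16970771 to 33655445 counts, and 17576 genes were abundant enough to be tested. The 4 HEK293 markers PAX2, NEFL, NEFM and LIN28B had counts in all 9 libraries, and their summed level was 793 to 978 CPM (counts after TMM scaling for library depth) in the controls, 644 to 667 CPM under CIC::DUX4 and 606 to 729 CPM under CIC::NUTM1. With each fusion 3 of the 4 passed an edgeR adjusted p of 0.05, beside 8.24% and 15.3% of all tested genes. NEFM, the largest part of the sum (means 567, 360 and 347 CPM), and NEFL were lower. LIN28B was higher (114, 142 and 148 CPM). CIC::DUX4 replicate 1 stood apart. In it, 48 genes had at least 20 counts while every other library had 3 or fewer, against 0 or 1 such gene in each of the other 8 libraries. They included the pluripotency genes POU5F1 (1402 counts, at most 1 elsewhere), DPPA4 (422 counts, 0 elsewhere) and NANOG (103 counts, 0 elsewhere), named after their values were seen. The 48 genes summed to 5542 counts, 0.0214% of that library, and MYL9 was among them. Results that rest on this library are given with and without it.

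The promoters of the set were searched for exact matches to the SRF element. RefSeq windows of 300 bases (250 before the transcription start and 50 from it, GRCh38.p14) matched 7 of the 10 genes: ACTG1, ACTA2, ACTG2, ACTC1, CNN1, VCL and SRF. A CArG box (CC, then 6 A or T bases, then GG, the same on both strands) was found in 4 of the 7, against 1.29% of all 35116 windows and 1.60% of the 27305 genes with one. The set was picked as SRF targets, so this share is a description. The 4 windows are printed 5′ to 3′ on the gene's strand, with the CArG boxes in capitals, because the same element stands in ACTG1, in SRF itself and in 2 muscle actin genes.
ACTG1: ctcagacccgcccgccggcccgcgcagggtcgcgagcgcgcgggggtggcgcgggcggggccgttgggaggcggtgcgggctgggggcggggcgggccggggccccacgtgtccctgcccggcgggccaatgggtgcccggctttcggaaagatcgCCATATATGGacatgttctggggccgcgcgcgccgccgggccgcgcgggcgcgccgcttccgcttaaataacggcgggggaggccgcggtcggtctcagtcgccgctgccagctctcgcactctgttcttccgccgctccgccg
SRF: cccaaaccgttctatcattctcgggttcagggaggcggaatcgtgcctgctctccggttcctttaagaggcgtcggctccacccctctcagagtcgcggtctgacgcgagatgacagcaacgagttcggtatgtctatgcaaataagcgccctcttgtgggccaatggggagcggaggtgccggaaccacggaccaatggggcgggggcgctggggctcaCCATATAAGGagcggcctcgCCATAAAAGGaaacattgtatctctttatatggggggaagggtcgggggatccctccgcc
ACTG2: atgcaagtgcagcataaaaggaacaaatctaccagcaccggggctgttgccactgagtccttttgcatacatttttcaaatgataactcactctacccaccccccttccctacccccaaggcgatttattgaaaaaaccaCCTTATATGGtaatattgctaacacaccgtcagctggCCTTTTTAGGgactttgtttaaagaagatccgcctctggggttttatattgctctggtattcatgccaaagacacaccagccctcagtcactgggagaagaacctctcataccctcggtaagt
ACTC1: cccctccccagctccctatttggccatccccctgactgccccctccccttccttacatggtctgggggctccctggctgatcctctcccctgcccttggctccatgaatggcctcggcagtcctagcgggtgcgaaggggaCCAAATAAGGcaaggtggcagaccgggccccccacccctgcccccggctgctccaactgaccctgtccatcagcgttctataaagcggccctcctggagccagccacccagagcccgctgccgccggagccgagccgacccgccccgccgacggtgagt
The ACTG1 window (chr17:81512750-81513049, minus strand) had 1 box, CCATATATGG, whose first base lay 94 bases before the start. The SRF window (chr6:43171019-43171318, plus strand) had 2, CCATATAAGG at 30 bases and CCATAAAAGG at 10 bases before its start. The ACTG2 window (chr2:73892758-73893057, plus strand) had CCTTATATGG at 110 and CCTTTTTAGG at 73 bases, and the ACTC1 window (chr15:34795500-34795799, minus strand) had CCAAATAAGG at 109 bases. The octamers bound by CIC (TGAATGAA, TGAATGGA, TCAATGAA and TCAATGGA, on both strands) had no match in any window of the 7 genes, against 3.77% of all windows, and no octamer overlapped a CArG box. This says only that these letters are not in these windows.

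The 2 cytoplasmic actins separated between the fusions. ACTG1 was lower under CIC::DUX4 and higher under CIC::NUTM1 than in the controls, in every library. ACTB, in contrast, rose under CIC::NUTM1 and differed from the controls by less than its error under CIC::DUX4.

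ACTG1 (ENSG00000184009, chr17:81509971-81523847 on the minus strand, GRCh38) encodes gamma cytoplasmic actin. Its level was 2774, 2687 and 2932 CPM in the 3 empty vector libraries, 2342, 2372 and 2526 CPM under CIC::DUX4, and 3429, 2976 and 3152 CPM under CIC::NUTM1. No library of one group reached the range of another. The means were 2797 ± 124 CPM in the controls, 2413 ± 98.9 CPM under CIC::DUX4 and 3186 ± 228 CPM under CIC::NUTM1 (SD, n = 3). On the log2 scale the fitted difference was -0.21 (SE 0.05) for CIC::DUX4 against empty vector, 0.19 (SE 0.05) for CIC::NUTM1 against empty vector and 0.40 (SE 0.05) for CIC::NUTM1 against CIC::DUX4, or -13.7%, 13.9% and 32.0% of the means. Non-overlap is common in these data. Under CIC::DUX4 it held for 25.7% of tested genes (14.8% above the controls and 11% below), under CIC::NUTM1 for 31.1% (18.2% and 12.9%) and between the fusions for 22% (12.6% and 9.36%). Also, the 2 comparisons with empty vector share their control libraries. Without CIC::DUX4 replicate 1 the first and last differences were -0.19 and 0.38.

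ACTB (ENSG00000075624, chr7:5527147-5563784 on the minus strand) encodes beta cytoplasmic actin. Its level was 2726, 2684 and 2839 CPM in the controls, 2848, 2695 and 2989 CPM under CIC::DUX4, and 3619, 3012 and 3304 CPM under CIC::NUTM1. The CIC::NUTM1 libraries all lay above both other groups, which overlapped each other. ACTB rose under CIC::NUTM1 by 0.27 on the log2 scale (SE 0.06, edgeR adjusted p = 0.00114), from 2750 ± 80.5 to 3311 ± 303 CPM. With CIC::DUX4 the mean was 2844 ± 147 CPM and the difference from empty vector 0.05 (SE 0.06, edgeR adjusted p = 0.71). The fusions themselves differed by 0.22 (SE 0.06, edgeR adjusted p = 0.0148). That last call was lost without CIC::NUTM1 replicate 1 (0.15, edgeR adjusted p = 0.0955) or 3 (0.21, adjusted p = 0.0887) and without CIC::DUX4 replicate 1 (0.22, adjusted p = 0.0517) or 2 (0.18, adjusted p = 0.12). The rise under CIC::NUTM1 over empty vector kept its call in all 6 refits without 1 library, at 0.20 to 0.33 (highest edgeR adjusted p = 0.0125).

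**Figure D1:**
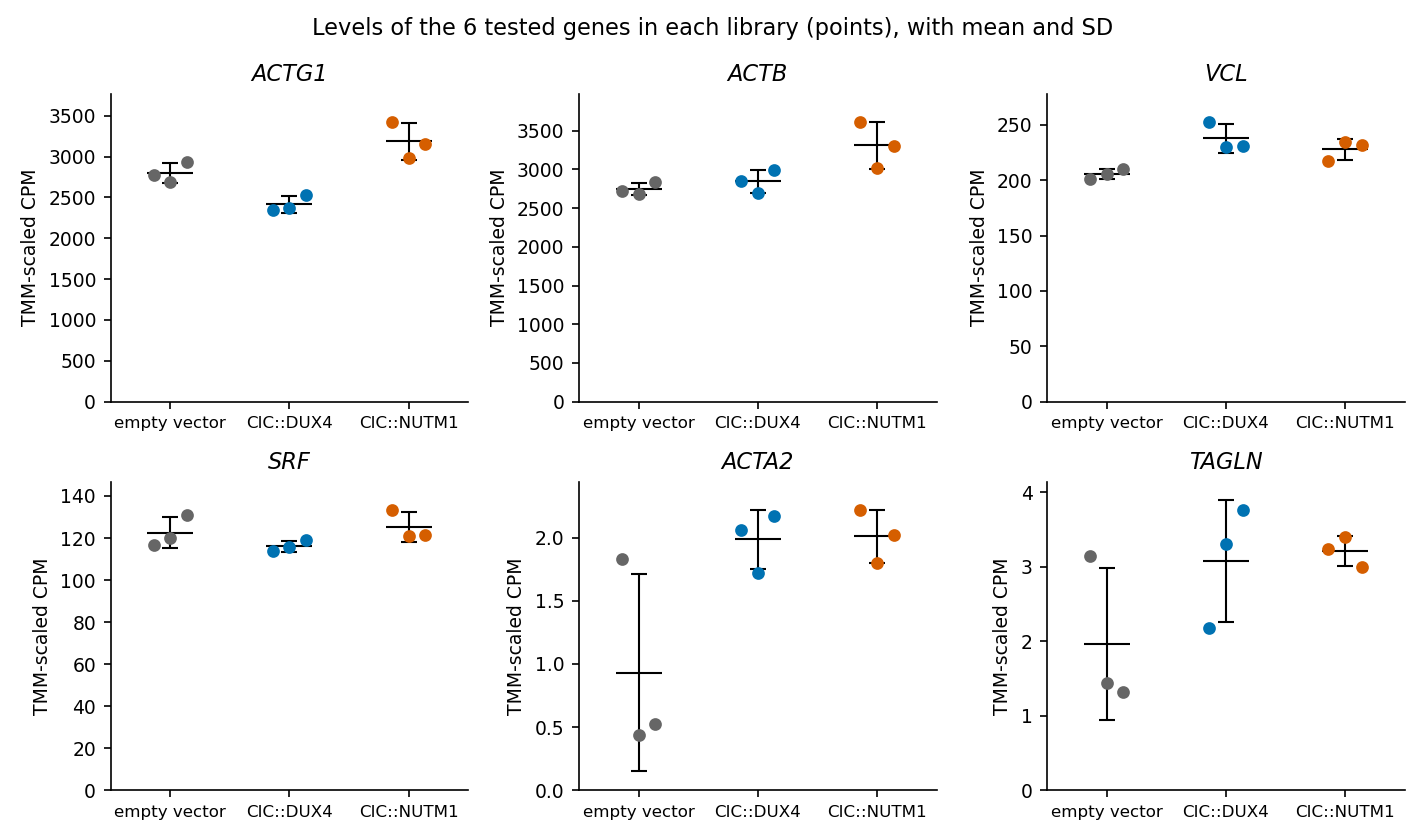
Levels in TMM-scaled CPM (y axes, each from 0) of the 6 genes abundant enough to test, with 1 point per library, the mean as a bar and the SD as whiskers for empty vector, CIC::DUX4 and CIC::NUTM1. ACTG1 fell in 3 separate ranges, ACTB was highest in the CIC::NUTM1 libraries, and the empty vector points of ACTA2 and TAGLN were spread by replicate 1.

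The balance between the 2 cytoplasmic actins can be read within each library, where it does not depend on scaling. ACTG1 made up 50.4%, 50.03% and 50.8% of the summed ACTG1 and ACTB counts in the controls, 45.1%, 46.8% and 45.8% under CIC::DUX4, and 48.7%, 49.7% and 48.8% under CIC::NUTM1. The 3 groups did not overlap, and CIC::DUX4 was lowest. The means were 50.4 ± 0.385%, 45.9 ± 0.849% and 49.1 ± 0.563% (SD, n = 3), so both fusions had a smaller ACTG1 share than the control although ACTG1 itself lay on opposite sides of it. Because ACTG1 chose the set, this is a description. Summed, the pair stood at 5547 ± 204 CPM in the controls, 5257 ± 232 CPM under CIC::DUX4 and 6497 ± 531 CPM under CIC::NUTM1, or 0.559%, 0.531% and 0.635% of all counts. Without CIC::DUX4 replicate 1 the ACTG1 share in that group was 46.3%.

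**Figure D2:**
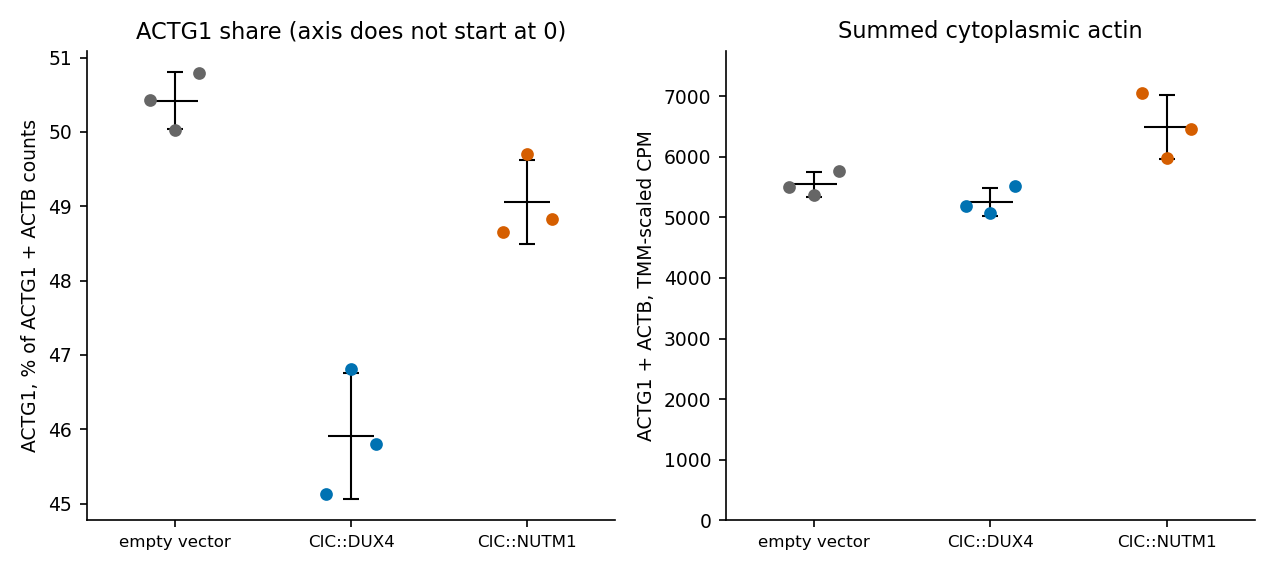
Left, ACTG1 as a percentage of ACTG1 plus ACTB counts (y axis does not start at 0). Right, the summed level of both in TMM-scaled CPM (y axis from 0), with 1 point per library, the mean as a bar and the SD as whiskers. The share was lowest under CIC::DUX4 (45.9%), and the sum was highest under CIC::NUTM1 (6497 CPM).

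Some sequence was shared with other genes. Of all 50-base windows in 1 annotated transcript of each gene, 3.58% of ACTG1 and 10.3% of ACTB recurred in another gene, most often in ACTG1P20 (1.22%) and ACTBP2 (5.07%). Windows of ACTG1 recurred in ACTB at 0.453%. The 33 annotated ACTB and ACTG1 pseudogenes held 58 to 140 counts per library, or 0.569 to 1.04 for every 1000 counts of the 2 genes. How reads with several matches were counted is not given in the sources used here.

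Of the 5 tested members other than ACTG1, vinculin was the 1 that passed the test under CIC::DUX4, and SRF itself passed in no comparison. VCL (ENSG00000035403, chr10:73995193-74121363 on the plus strand) encodes vinculin, which links actin filaments to adhesions. It measured 201, 205 and 209.7 CPM in the controls, 253, 229.6 and 231 CPM under CIC::DUX4, and 217, 235 and 232 CPM under CIC::NUTM1. Both fusion groups lay wholly above the control, as did 14.8% and 18.2% of tested genes. VCL rose under CIC::DUX4 by 0.21 (SE 0.06, log2, edgeR adjusted p = 0.0254), and under CIC::NUTM1 the difference was 0.15 (edgeR adjusted p = 0.0965). The fusions differed by -0.06 (edgeR adjusted p = 0.668). The VCL call was lost without empty vector replicate 1 (0.19, edgeR adjusted p = 0.109), 2 (0.21, adjusted p = 0.0801) or 3 (0.23, adjusted p = 0.0662) and without CIC::DUX4 replicate 1 (0.16, adjusted p = 0.22). It was also lost with no count filter (0.19, edgeR adjusted p = 0.0734). AP3M1 overlaps VCL exons on the other strand and differed by 0.17 in the same comparison (edgeR adjusted p = 0.154), and whether counting used strand is not given in the sources used here.

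SRF (ENSG00000112658, chr6:43171299-43181507 on the plus strand) measured 117, 119.96 and 131 CPM in the controls, 114, 116 and 119 CPM under CIC::DUX4, and 133, 121 and 121 CPM under CIC::NUTM1. The ranges of each fusion overlapped the control, while all CIC::NUTM1 libraries lay above all CIC::DUX4 libraries. The log2 differences were -0.08 (edgeR adjusted p = 0.593), 0.03 (adjusted p = 0.839) and 0.11 (adjusted p = 0.441), each with an SE of 0.07.

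The muscle-type members were at low level or too low to test. ACTA2 (ENSG00000107796, chr10:88935074-88991339 on the minus strand), the smooth muscle alpha actin, measured 1.83, 0.439 and 0.521 CPM in the controls, 2.06, 1.72 and 2.18 CPM under CIC::DUX4, and 2.22, 1.798 and 2.02 CPM under CIC::NUTM1. Empty vector replicate 1 lay among the fusion libraries and the other 2 controls lay below all of them. The log2 difference was 1.18 (SE 0.44, edgeR adjusted p = 0.114) under CIC::DUX4 and 1.20 (SE 0.44, edgeR adjusted p = 0.0709) under CIC::NUTM1, and the fusions differed by 0.01. Without empty vector replicate 1 both passed, at 2.04 (edgeR adjusted p = 0.00351) and 2.06 (edgeR adjusted p = 0.002). In the other 5 of the 6 refits without 1 library ACTA2 was not called, with either fusion. The lowest differences over the refits were 0.80 under CIC::DUX4 and 0.82 under CIC::NUTM1 (highest edgeR adjusted p = 0.397 and 0.284). With the replicate number, taken to mark the day of transfection, as a block, ACTA2 was called under CIC::NUTM1 (1.31, SE 0.42, edgeR adjusted p = 0.0391) and not under CIC::DUX4 (1.28, SE 0.42, edgeR adjusted p = 0.0699). Within replicates 1, 2 and 3 its log2 CPM was above the control by 0.16, 1.78 and 1.89 under CIC::DUX4 and by 0.27, 1.84 and 1.79 under CIC::NUTM1.

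TAGLN (ENSG00000149591, chr11:117199321-117204782 on the plus strand) encodes transgelin, an actin-bundling protein of smooth muscle. Its level was 3.15, 1.43 and 1.32 CPM in the controls, 2.17, 3.31 and 3.76 CPM under CIC::DUX4, and 3.24, 3.41 and 3.00 CPM under CIC::NUTM1. Empty vector replicate 1 was again the high control. The differences were 0.68 (SE 0.33, log2, edgeR adjusted p = 0.26) and 0.75 (SE 0.33, edgeR adjusted p = 0.132). Without empty vector replicate 1 they were 1.14 (edgeR adjusted p = 0.0405) and 1.21 (edgeR adjusted p = 0.0181). In the other 5 of the 6 refits without 1 library TAGLN was not called, with either fusion. The lowest differences over the refits were 0.46 under CIC::DUX4 and 0.54 under CIC::NUTM1 (highest edgeR adjusted p = 0.626 and 0.408). ACTA2 and FAS, and TAGLN and PCSK7, share exon bases on opposite strands.

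**Figure D3:**
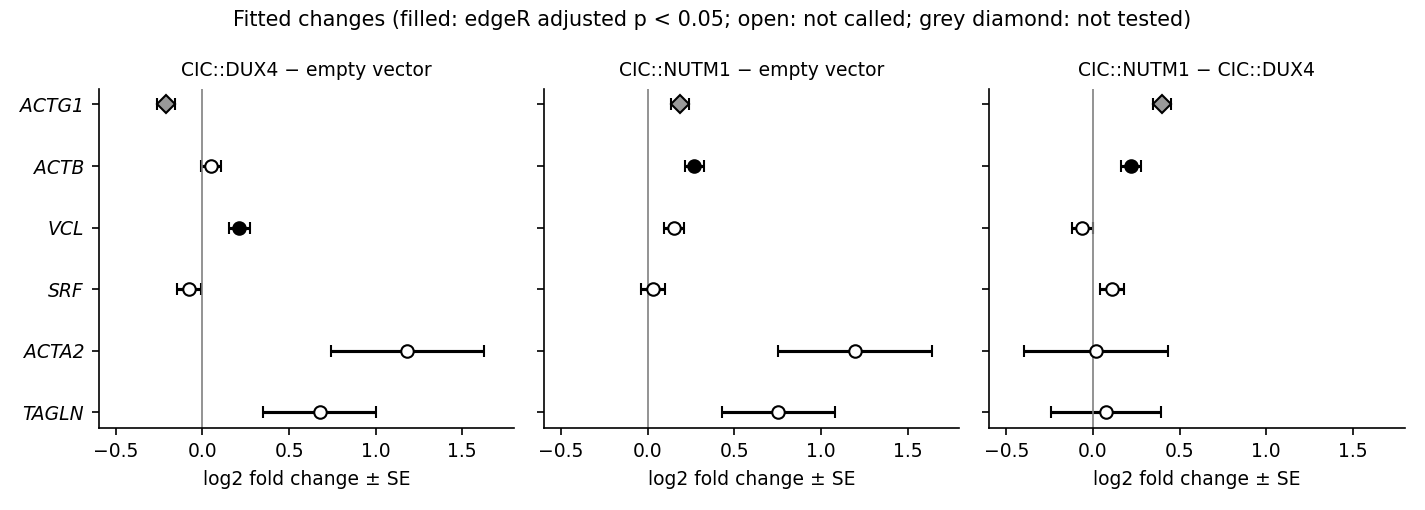
Fitted log2 fold change (x axes) with its SE for the 6 tested genes in each of the 3 comparisons. Filled circles passed an edgeR adjusted p of 0.05, open circles did not, and the grey diamond is ACTG1, which was not tested. ACTG1 sits at -0.21 and 0.19 in the first 2 panels, and ACTB is filled in the other 2, both of which involve CIC::NUTM1.

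The remaining 4 members were too low to test. ACTG2 (chr2:73892314-73919865, plus strand), the enteric smooth muscle actin, had 0, 4 and 0 counts in the controls, 8, 3 and 0 under CIC::DUX4, and 1, 7 and 3 under CIC::NUTM1. ACTC1 (chr15:34788095-34795726, minus strand), the cardiac actin, had 0, 1 and 0 counts in the controls, 19, 1 and 9 under CIC::DUX4, and 6, 0 and 1 under CIC::NUTM1. CNN1 (chr19:11538717-11550323, plus strand), the smooth muscle calponin, had 0, 1 and 1 counts, then 3, 1 and 1, then 5, 4 and 1 in the same order. ACTC1 exceeded 6 counts in CIC::DUX4 replicates 1 and 3 only.

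MYL9 (chr20:36541484-36551447, plus strand), a regulatory myosin light chain, had 35 counts in CIC::DUX4 replicate 1 and 0 in the other 8 libraries. A count of 0 allows up to 3 counts, which is 0.0878 to 0.18 CPM at these depths, and covers counting error only since reads lacking molecular identifiers can be copies of 1 molecule. MYL9 was not detectable at this depth outside the library that stood apart. The printed CArG boxes in ACTG2 and ACTC1 belong to genes at this limit, while the boxes in ACTG1 and SRF belong to genes at high level.

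**Figure D4:**
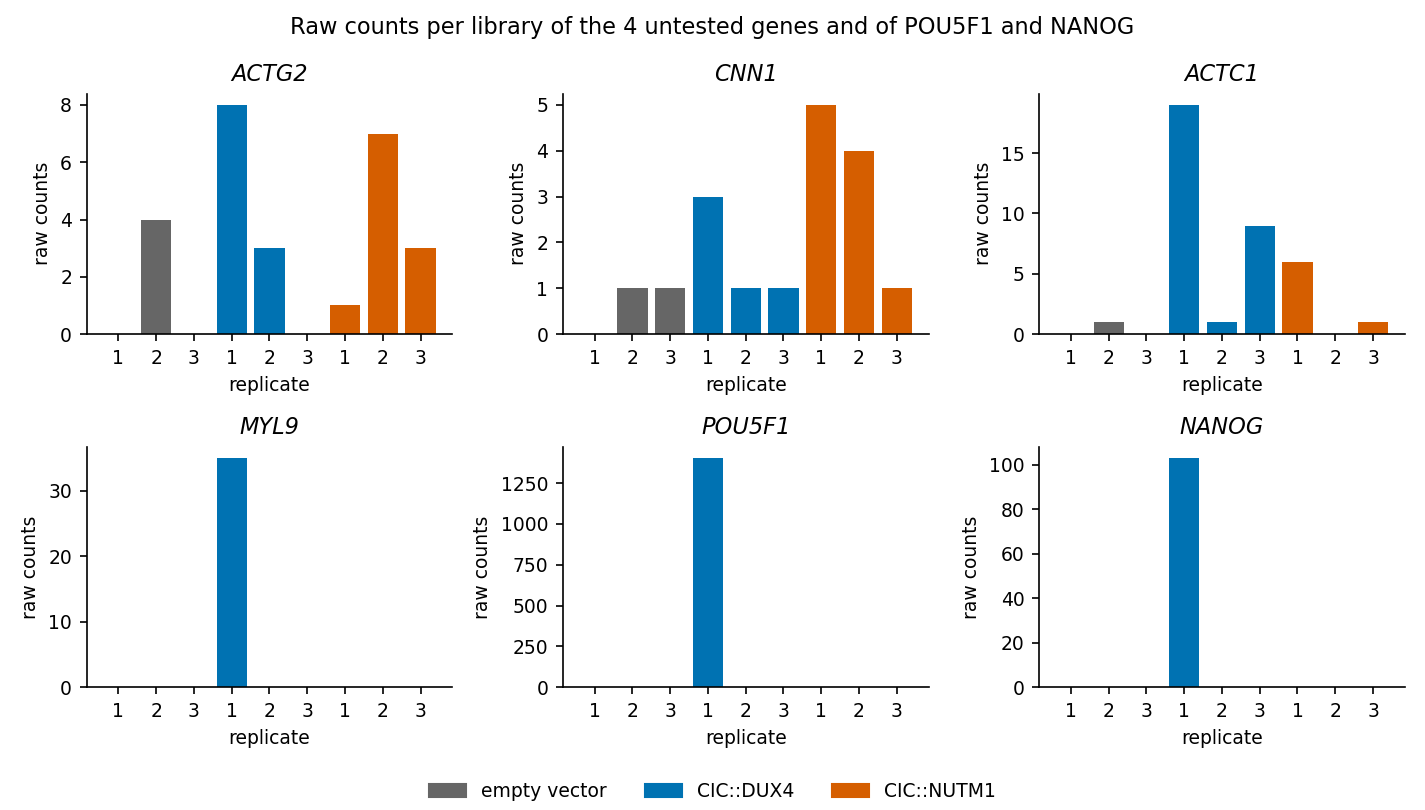
Raw counts (y axes) of the 4 genes too low to test, ACTG2, ACTC1, MYL9 and CNN1, in each of the 9 libraries. The pluripotency genes POU5F1 and NANOG, outside the set and named after their values were seen, are drawn beside them. MYL9 stands at 35 counts in CIC::DUX4 replicate 1 and at 0 elsewhere, and ACTC1 is highest in the same library at 19.

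Per kilobase of all annotated exon bases, the order over all 9 libraries was ACTG1 (935 CPM per kb), ACTB (843), SRF (28.9), VCL (22.4), TAGLN (0.703), ACTA2 (0.552), MYL9 (0.0526), ACTC1 (0.0421), CNN1 (0.0306) and ACTG2 (0.0306). This length pools all transcripts of a gene: 2993 bases for ACTG1, 3519 for ACTB, 9992 for VCL and 4202 for SRF. The longest coding transcripts had 2256, 1921, 6489 and 4202 bases. The order of ACTG1 and ACTB, and of SRF and VCL, therefore depends on the length used. On the pooled exon length, ACTG1 was above ACTB in the controls (935 ± 41.4 against 781 ± 22.9 CPM per kb) and under CIC::NUTM1 (1064 ± 76.2 against 941 ± 86.2, where the ranges overlapped). With CIC::DUX4 the 2 were level within their spread (806 ± 33.1 against 808 ± 41.8). On the same length SRF lay above VCL in every group. TAGLN and ACTA2 overlapped in the controls, and the last 4 genes rested on 17 to 37 counts each over all libraries. All 35 counts of MYL9 and 19 of the 37 of ACTC1 were from CIC::DUX4 replicate 1. Over the other 8 libraries the last 4 were CNN1 (0.0295 CPM per kb), ACTC1 (0.0277), ACTG2 (0.0244) and MYL9 (0), and the first 6 stood in the same order.

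In all, 1 of the 5 tested members other than ACTG1 was called in each comparison at an edgeR adjusted p under 0.05: VCL under CIC::DUX4, ACTB under CIC::NUTM1 and ACTB between the fusions. Over all tested genes the shares called were 8.24% under CIC::DUX4 (6.96% higher and 1.27% lower), 15.3% under CIC::NUTM1 (11.5% and 3.83%) and 6.61% between the fusions (4.97% and 1.64%), and 5 genes are too few to set against them. Without CIC::DUX4 replicate 1, edgeR called 0 of the 5 in the comparisons of CIC::DUX4 with empty vector (3 at an unadjusted p under 0.05) and between the fusions (1 at an unadjusted p under 0.05). DESeq2 on all libraries called 1 in each. The median log2 difference of the 5 was 0.21, 0.27 and 0.08, and that of all genes was -0.00, -0.00 and -0.01.

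Genes whose log2 level followed ACTG1 most closely over the 9 libraries, among 10120 genes at 10 CPM or more, were GATA6 (Pearson r = 0.980), ALKBH5 (0.977), HMGB2 (0.974), HOXA10 (0.973) and TALDO1 (0.966). These were the highest of many correlations over libraries that share groups and depth, and carry no test. The transcription factor gene GATA6 measured 84.4 ± 6.54 CPM in the controls, 69.4 ± 3.67 CPM under CIC::DUX4 and 101 ± 9.93 CPM under CIC::NUTM1. HOXA10, a homeobox gene, measured 123 ± 4.49, 96.7 ± 0.813 and 146 ± 16.8 CPM in that order. Among the members, r with ACTG1 was 0.807 for SRF, 0.763 for ACTB, 0.06 for TAGLN, 0.01 for ACTA2 and -0.35 for VCL.

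Beyond the members, actin-related genes were described from lists of pathway genes. Of 6 tested further actins and actin-related proteins, ACTR3 rose under CIC::DUX4, ACTR3 and ACTR2 rose under CIC::NUTM1, and ACTR2 was higher under CIC::NUTM1 than under CIC::DUX4. These are 1, 2 and 1 of 6 genes, beside 8.24%, 15.3% and 6.61% of all tested genes, and 6 are too few to set against those shares. ACTR2 and ACTR3 encode the 2 actin-related subunits of the Arp2/3 complex, which starts branched filaments. ACTR3 measured 180 ± 4.23 CPM in the controls, 227 ± 15.3 CPM under CIC::DUX4 (log2 difference 0.33, edgeR adjusted p = 0.00111) and 248 ± 20.1 CPM under CIC::NUTM1 (0.46, edgeR adjusted p = 1.0e-05). ACTR2 measured 371 ± 4.55, 342 ± 17.1 and 436 ± 30.0 CPM. It rose by 0.23 under CIC::NUTM1 (edgeR adjusted p = 0.00626) and by 0.35 over CIC::DUX4 (edgeR adjusted p = 0.000267), and it was 0.16 without CIC::NUTM1 replicate 3 (edgeR adjusted p = 0.118) in the first of these. Of the 7 other Arp2/3 subunit genes, ARPC5L alone was called, and rose under CIC::NUTM1 by 0.38 (edgeR adjusted p = 0.000843). That is 14.3% of the 7, beside 15.3% of all tested genes, and 0 were called in the other 2 comparisons. ACTA1, the skeletal actin, measured 0.779 ± 0.298, 0.845 ± 0.375 and 1.82 ± 1.03 CPM, and ACTBL2 had 2 counts in all.

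A wider list of contractile and adhesion genes under MRTF and SRF changed in both directions. Of 34 tested, 4 rose and 2 fell under CIC::DUX4 (17.6% called), 7 rose and 2 fell under CIC::NUTM1 (26.5%), and 5 were higher under CIC::NUTM1 than under CIC::DUX4 (14.7%). The shares over all tested genes were 8.24%, 15.3% and 6.61%. The list's median differences were 0.02, -0.01 and 0.02, beside -0.00, -0.00 and -0.01 over all genes. Without CIC::DUX4 replicate 1, only MYH11 and PDLIM5 (2 genes) remained called in the first comparison, and 3 genes were called between the fusions. Calls over all genes in the first comparison also fell in that refit, from 1448 to 865. Over the 6 refits without 1 library the list's count under CIC::DUX4 against empty vector was 2 to 7, and it fell clearly in 2 of them. The higher share of the list there was thus sensitive to more than this library. The call of CNN3 was lost without empty vector replicate 1 with either fusion, without CIC::DUX4 replicate 1 or 2, and without CIC::NUTM1 replicate 3. That of TLN1 was lost without empty vector replicate 2 or 3 with either fusion, without CIC::DUX4 replicate 1 or 2, and without CIC::NUTM1 replicate 1. Between the fusions, CNN2 lost its call without replicate 1 or 3 of either fusion, and TAGLN2 without any 1 of the 6 libraries but CIC::DUX4 replicate 3.

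Within this list MYH11, the smooth muscle myosin heavy chain, moved furthest from the controls with both fusions. It measured 0.172, 0.878 and 0.281 CPM in the controls, 5.07, 3.59 and 2.12 CPM under CIC::DUX4, and 12.4, 5.93 and 10.4 CPM under CIC::NUTM1, with no overlap between groups. It rose by 2.86 on the log2 scale under CIC::DUX4 (SE 0.48, edgeR adjusted p = 0.000949) and by 4.24 under CIC::NUTM1 (SE 0.46, edgeR adjusted p = 8.5e-06). Over the 6 refits without 1 library the rises were 2.52 to 3.93 and 3.95 to 5.31, and all were called (highest edgeR adjusted p = 0.0092 and 0.00015). The largest were without empty vector replicate 2, the highest control. The fusions differed by 1.38 (SE 0.37, edgeR adjusted p = 0.0392). That call was lost without CIC::NUTM1 replicate 1 (edgeR adjusted p = 0.112) or 3 (0.14) and CIC::DUX4 replicate 2 (0.158) or 3 (0.115), and with DESeq2 (adjusted p = 0.151). NDE1, which shares exon bases with MYH11 on the other strand, was 43.2 CPM in the controls and 44.3 CPM with either fusion.

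Of 6 smooth muscle markers (MYH11, DES, MYOCD, LMOD1, CNN1 and ACTG2), MYH11 and LMOD1 were abundant enough to test. Their summed level, all 6 included, was 7.44 to 9.46 CPM in the controls, 10.5 to 12.3 CPM under CIC::DUX4 and 11.2 to 20.3 CPM under CIC::NUTM1. MYH11 held means of 0.444, 3.59 and 9.59 CPM of these sums. The higher sums with the fusions thus came mostly from MYH11 and do not describe the marker set. LMOD1 measured 7.44 ± 0.173, 6.62 ± 1.61 and 5.61 ± 1.56 CPM, and MYOCD, the smooth muscle partner of SRF, had at most 39 counts in a library. The summed level of 8 fibroblast markers was 40.9 to 44.6, 44.4 to 48.7 and 40.9 to 44.5 CPM in the 3 groups. The highest CIC::DUX4 value was replicate 1, with 203 counts of THY1 (at most 2 elsewhere), and the other 2 were 44.4 and 45.3 CPM. Most of that sum was COL1A1. Of the 6 tested markers, 1 was called under CIC::DUX4 and 3 under CIC::NUTM1, beside 8.24% and 15.3% of all tested genes. These are too few genes to set against those shares. LUM rose from 2.66 ± 0.511 to 5.49 ± 1.00 and 7.23 ± 0.636 CPM (edgeR adjusted p = 0.00257 and 3.3e-05). Under CIC::NUTM1, DCN rose from 0.0390 ± 0.0676 to 0.751 ± 0.417 CPM (edgeR adjusted p = 0.00533) and COL1A1 fell from 33.5 ± 2.03 to 26.3 ± 2.94 CPM (edgeR adjusted p = 0.0434). DCN was near the limit of detection, with 0, 4 and 0 counts in the controls and 19, 21 and 6 under CIC::NUTM1. The sum of 9 cardiac and skeletal muscle markers was 2.12 to 3.19, 2.82 to 3.64 and 2.43 to 4.50 CPM, with MYOG at 0 in all libraries, TNNT2 at 0 in the controls and under CIC::DUX4, and MYH6 at 0 under both fusions. The part of such cells in the results above was not tested.

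PDLIM5, a LIM domain protein of stress fibres, measured 55.5 ± 5.99 CPM in the controls, 95.9 ± 13.3 CPM under CIC::DUX4 (0.79, edgeR adjusted p = 4.1e-05) and 101 ± 13.5 CPM under CIC::NUTM1 (0.86, edgeR adjusted p = 8.1e-06). The integrin gene ITGB1 and the LIM gene FHL1 rose under CIC::NUTM1 alone among the comparisons with empty vector. Under CIC::DUX4 their log2 differences from the controls were -0.02 (ITGB1) and 0.03 (FHL1). ITGB1 rose by 0.42 (edgeR adjusted p = 3.1e-05) and was 0.44 above CIC::DUX4 (edgeR adjusted p = 5.3e-05). FHL1 rose by 0.34 (edgeR adjusted p = 7.2e-05) and was 0.32 above CIC::DUX4 (edgeR adjusted p = 0.00057). Both were called in all 6 refits without 1 library, in each of these comparisons.

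Of the 4 tropomyosin genes, whose proteins coat actin filaments, TPM4 and TPM1 were called with both fusions, in opposite directions. TPM2 differed by 0.20 and 0.44 (edgeR adjusted p = 0.607 and 0.0927) and TPM3 by 0.01 and 0.10 (edgeR adjusted p = 0.942 and 0.321), and neither was called. TPM4 rose by 0.23 under CIC::DUX4 (edgeR adjusted p = 0.0112) and by 0.31 under CIC::NUTM1 (edgeR adjusted p = 0.000505). TPM1 fell by 0.31 (edgeR adjusted p = 0.0148) and by 0.29 (edgeR adjusted p = 0.0153), from 57.5 ± 2.28 to 46.4 ± 2.82 and 47.0 ± 0.807 CPM. With CIC::DUX4 the TPM4 call was lost without empty vector replicate 2 (edgeR adjusted p = 0.0808) or CIC::DUX4 replicate 1 (0.103). The TPM1 call there was lost without empty vector replicate 3 (0.102) or CIC::DUX4 replicate 1 (0.0813) or 2 (0.0821), and under CIC::NUTM1 without empty vector replicate 3 (0.0889).

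**Figure D5:**
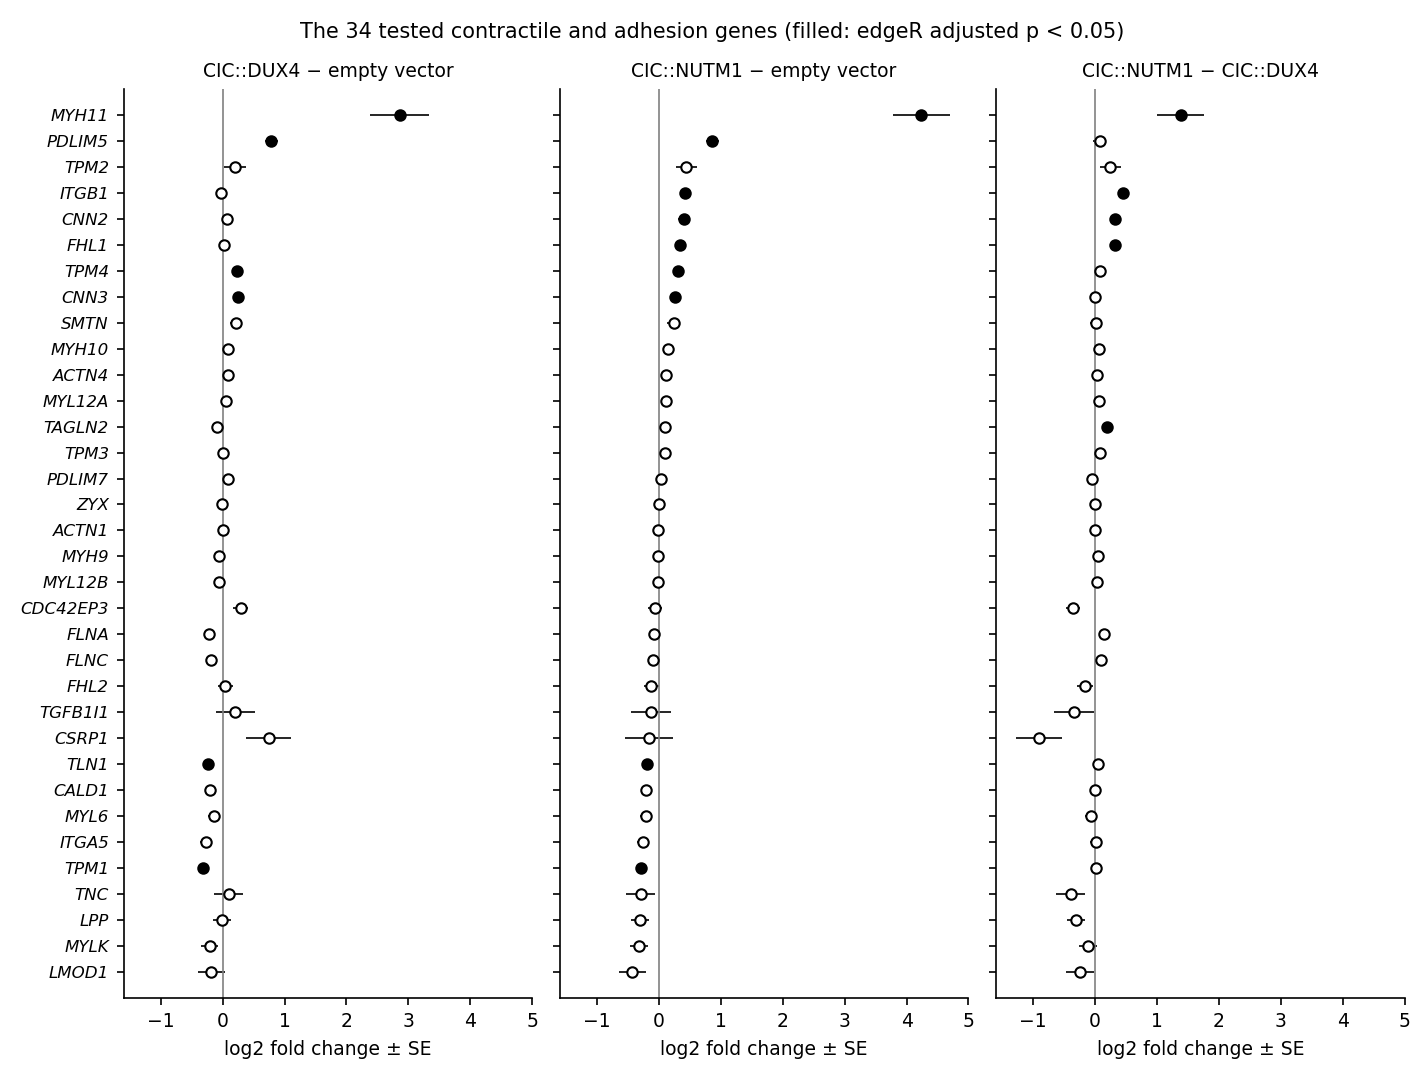
Fitted log2 fold change (x axes) with its SE for the 34 tested contractile and adhesion genes in the 3 comparisons, ordered by the change under CIC::NUTM1. Filled circles passed an edgeR adjusted p of 0.05. MYH11 lies far to the right at 2.86 and 4.24, and most genes lie close to 0.

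Of 5 tested transcriptional partners of SRF (MRTFA, MRTFB, ELK1, ELK3 and ELK4), 1 was called with each fusion, beside 8.24% and 15.3% of all tested genes. They are a few genes of a longer list that is not reported here, and the gene called was MRTFA, an actin-sensing coactivator. It measured 57.4, 58.3 and 62.5 CPM in the controls, 90.7, 82.3 and 86.7 CPM under CIC::DUX4, and 88.4, 81.3 and 86.5 CPM under CIC::NUTM1. The fusion groups overlapped and both lay above the control. It rose by 0.54 (edgeR adjusted p = 9.2e-06) and 0.52 (edgeR adjusted p = 9.4e-06), each with an SE of 0.07, and was called in all 6 refits without 1 library for both. The second such coactivator, MRTFB, differed from the controls by -0.04 and -0.05 (edgeR adjusted p = 0.894 and 0.817). The ternary complex factors differed by 0.14 and 0.11 (ELK1), -0.18 and -0.30 (ELK3) and 0.02 and -0.03 (ELK4), with the lowest edgeR adjusted p at 0.0612, for ELK3 under CIC::NUTM1.

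Early response genes linked to SRF, some of them through ternary complex factors, were also described. The list was not limited to targets of those factors, so its counts do not measure that arm alone. Its 12 tested genes were FOS, FOSB, FOSL1, JUNB, EGR1, EGR3, IER2, NR4A1, MCL1, DUSP5, CCN1 and CCN2. Of these, 6 rose under CIC::DUX4, 8 rose under CIC::NUTM1 and 7 were higher under CIC::NUTM1 than under CIC::DUX4, beside 8.24%, 15.3% and 6.61% of all tested genes called in either direction. The list's median log2 differences were 0.61, 1.44 and 0.76, and those of all genes -0.00, -0.00 and -0.01. Without CIC::DUX4 replicate 1 the counts were 5 and 6 in the comparisons that use it. The orphan receptor gene NR4A1 measured 24.0 ± 0.549 CPM in the controls, 37.2 ± 2.62 CPM under CIC::DUX4 (0.63, edgeR adjusted p = 0.000111) and 76.6 ± 12.4 CPM under CIC::NUTM1 (1.67, edgeR adjusted p = 1.8e-11). These genes respond to several other factors besides SRF.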

How the data were processed

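The members and gene lists were chosen with earlier results of these data known. Per the submitters' processing notes, STAR 2.7.10b, R 4.2.2, edgeR 3.40.2 and GRCh38 were used. The counting program, annotation and use of strand are not given in the sources used here. Raw counts for each Ensembl ID were deposited by the authors and used for all levels and tests. They also deposited log2 CPM for named genes, which for 15711 matched genes equalled log2 CPM computed from the counts with TMM and a prior count of 2. Gene symbols matched 62622 of 62700 IDs. Positions, exon lengths and overlaps came from GENCODE 29, promoters from RefSeq.

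The test was edgeR 4.0.16 (R 4.3.3) with filterByExpr (17576 of 34765 genes with a count), TMM, 1 robust quasi-likelihood fit of all 9 libraries, and Benjamini-Hochberg adjustment over all tested genes, called under 0.05. Levels are CPM after TMM scaling. SDs are over 3 libraries, and each SE was derived from the F statistic. The biological coefficient of variation was 10.1%. Named genes were all members, called list genes (at most 6 per list and comparison) and the 5 genes most like ACTG1. Y-linked genes were left out of the count of genes seen in 1 library.

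Alternatives were 3 scalings, 2 count filters, DESeq2 1.42.0, limma-trend (limma 3.58.1) on the deposited log2 CPM, a replicate block, fits limited to both groups of a comparison, and each library left out. Counts of the other lists without CIC::DUX4 replicate 1 were added after the data were seen. Per the labels, replicates were transfected on separate days, and the number was taken to mark a day. The labels do not say that same-numbered libraries of the 3 groups shared a day. Deviations of same-numbered libraries from their group means were correlated at -0.246 to 0.275 in 9 pairs. The blocked fit is given where it changed a call. The fit was tested on simulated data. Of 1 further gene list, only the SRF partners are reported here.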

Additional observations from a re-analysis of the deposited data

Results flagged for a closer look

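ACTG1 lay below the empty vector in all 3 CIC::DUX4 libraries and above it in all 3 CIC::NUTM1 libraries, with a log2 difference between the fusions of 0.40. The difference was not tested, because the gene was chosen for it.

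ACTB differed in its response to the fusions, with a log2 difference of 0.22 between CIC::NUTM1 and CIC::DUX4 (edgeR adjusted p = 0.0148, higher in 3 of 3 libraries). The range of edgeR adjusted p over 6 refits without 1 library was 0.00105 to 0.12.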

How the results depend on the processing

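With 1 member called in each comparison, the count of called members moved easily. With CIC::DUX4 it was 2 with no count filter (ACTC1 and MYL9, in place of VCL), and 0 to 2 without 1 library. All 35 counts of MYL9 and 19 of the 37 of ACTC1 were from CIC::DUX4 replicate 1, and the fit with no filter was not repeated without that library. With CIC::NUTM1 the count of called members was 2 with limma-trend and 2 with the replicate block (ACTA2 and ACTB in both), and 1 to 3 without 1 library. Between the fusions it was 2 with no filter, 0 with upper quartile factors (edgeR adjusted p of ACTB 0.053) and 0 with only the groups compared (0.0572), each with 1 member at an unadjusted p under 0.05, and 0 to 1 without 1 library. The contractile list (6, 9 and 5 called) gave 2 to 7, 7 to 11 and 2 to 4 without 1 library. Over all genes, edgeR called 1448 with CIC::DUX4, 961 with at least 10 counts in every library and 865 without CIC::DUX4 replicate 1; between the fusions it called 1162, and 690 without CIC::NUTM1 replicate 3. The cause was not tested.

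Directions turned for differences near 0. ACTA2 between the fusions was -0.0304 with library totals, -0.0157 with upper quartile factors, -0.000115 with only the groups compared and -0.0775 to 0.0934 without 1 library. TAGLN between the fusions was -0.13 to 0.24 without 1 library. SRF with CIC::NUTM1 was -0.0138 with library totals, -0.0113 with upper quartile factors and -0.0200 to 0.0775 without 1 library. ACTG1 kept its 3 directions in all alternatives, at -0.25 to -0.18, 0.13 to 0.23 and 0.34 to 0.45 without 1 library. Its share of cytoplasmic actin counts was 50.2% to 50.6%, 45.5% to 46.3% and 48.7% to 49.3%.

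With the replicate block, which pairs libraries by replicate number, 2 members were called under CIC::NUTM1 (ACTA2, edgeR adjusted p = 0.0391, and ACTB). No other call of a member changed. That equal numbers mark a shared day is an assumption. Different-numbered libraries had deviations correlated at -0.363 to 0.256 in 18 pairs, and in 6 of 18 cases a library correlated best with its own number.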
